A study of Mus musculus with 64 samples.

Results

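A set of 7 liver genes known as targets of growth hormone were examined, namely Mup20, Mup21, Mup5, Mup3, Cyp7b1, Elovl3 and Slco1a1. They were chosen by their measured log2 differences between double knockout and wild-type livers and by their known response to growth hormone, so their values in that comparison are given as a description and carry no test. Of the 7 genes, 6 had a probe on the array, through 8 of its 25697 probes, and 5 were among the 7646 genes tested in the liver. The data were Illumina bead-array measurements of total RNA from 16 males, each 21 weeks old, with 1 array for every liver, brain, thymus and spleen. The groups of 4 mice each were homozygous Hmgn1-/-n2-/- double knockouts labelled C57BL/6J, wild types labelled C57BL/6J, homozygous Hmgn2-/- single knockouts labelled C57BL/6, and wild types labelled C57BL/6. HMGN1 and HMGN2 are chromatin proteins that bind nucleosomes, and the study asked how their loss changes expression. Each mutant was set against the wild type with its own strain label.

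In male rodents the pituitary releases growth hormone in pulses, and each pulse activates the transcription factor STAT5b in hepatocytes. Pulses keep a set of male-biased genes high in the male liver, and the steadier secretion of females favours a female-biased set. Major urinary proteins are small lipocalins made by the liver, secreted into blood and excreted in urine, where they bind and release pheromones. Mup20 encodes darcin, a male pheromone in its own right.

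The urinary protein genes lie in a cluster of close copies on mouse chromosome 4, which limits what 1 probe can tell apart. The stretches upstream of Mup21 and Mup3 are shown to illustrate that closeness: they are the 250 bases before each gene's start in the RefSeq tables, at chr4:62150842-62151091 and chr4:62087318-62087567 of GRCm38.p6, both on the minus strand. Capitals mark bases that differ from, or have no partner in, the other stretch.
Mup21: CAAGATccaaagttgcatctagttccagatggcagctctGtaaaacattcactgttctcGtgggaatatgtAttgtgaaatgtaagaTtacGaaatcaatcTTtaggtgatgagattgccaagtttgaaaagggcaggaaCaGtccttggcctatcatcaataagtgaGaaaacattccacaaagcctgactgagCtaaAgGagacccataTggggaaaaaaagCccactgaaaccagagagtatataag
Mup3: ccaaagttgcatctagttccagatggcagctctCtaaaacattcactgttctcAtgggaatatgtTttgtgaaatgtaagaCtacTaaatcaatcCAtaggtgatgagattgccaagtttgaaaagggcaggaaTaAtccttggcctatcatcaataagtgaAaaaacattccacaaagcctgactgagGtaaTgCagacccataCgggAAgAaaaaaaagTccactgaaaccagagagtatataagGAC
Over 247 aligned columns 229 bases were identical (92.7%). The STAT5 motif TTCNNNGAA, searched on both strands from 250 bases before to 50 after the start, was in neither promoter, against 8.3% of the 32851 promoters in the table. The C/EBP motif TTGCNNAA was also in neither, against 10.8% of promoters. RefSeq promoters were matched for 3 of the 7 genes, Slco1a1 being the other one, and it held neither motif.

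The genotypes were checked on the liver arrays first. The Hmgn2 probe averaged 4.65 ± 0.21 on the log2 scale in Hmgn1-/-n2-/- livers and 8.95 ± 0.28 in C57BL/6J wild types (SD, n = 4 each), and 4.47 ± 0.15 in Hmgn2-/- livers and 8.83 ± 0.09 in C57BL/6 wild types (SD, n = 4 each). The Hmgn1 probe averaged 10.72 ± 0.04 in Hmgn1-/-n2-/- livers and 10.74 ± 0.16 in C57BL/6J wild types (SD, n = 4 each), so it did not show the Hmgn1 deletion, and the labels do not say which part of the gene is deleted. The 8 hepatocyte markers summed to between 89958 and 93385 in Hmgn1-/-n2-/- livers, between 86939 and 90935 in C57BL/6J wild types, between 88118 and 95524 in Hmgn2-/- livers and between 86656 and 91107 in C57BL/6 wild types (normalized linear signal), and none of the 8 passed the test in a liver comparison. The probes detected numbered 9550 to 9938 on Hmgn1-/-n2-/- arrays and 10037 to 10407 on C57BL/6J wild-type arrays, without overlap, and the part of this in the results below was not tested. In bulk tissue, fewer cells of a type and less RNA per cell cannot be told apart.

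Markers of other cell types and acute phase genes were read as well, and 0 genes of these lists passed in limma in any liver comparison. In Hmgn1-/-n2-/- minus C57BL/6J wild type, 6 of 7 liver endothelial markers were below 0 (median -0.41), beside 4152 of all 7646 genes. At an unadjusted p under 0.05, 2 of the 7 markers were lower, beside 5.39% of all genes. The summed signal of these markers was 1535 to 2953 in Hmgn1-/-n2-/- livers, against 2424 to 2836 in C57BL/6J wild types. In the same comparison 7 of 8 Kupffer and macrophage markers were below 0 (median -0.25, 1 lower at an unadjusted p under 0.05), with sums of 594 to 1426 in Hmgn1-/-n2-/- livers, against 724 to 1649 in C57BL/6J wild types. In C57BL/6 minus C57BL/6J wild type, 8 of 8 Kupffer and macrophage markers were above 0 (median 0.35) and 10 of 11 acute phase genes were (median 1.02, 7 higher at an unadjusted p under 0.05), beside 44.2% of all genes above 0 and 7.45% higher at that p. In Hmgn2-/- minus C57BL/6 wild type the acute phase median was -0.88. Some acute phase genes varied widely among the C57BL/6 wild types that both comparisons use. Lcn2 spanned 4.62 to 13.02 and Saa1 4.72 to 11.46 there, so these medians do not describe every liver of the group. Fasting and clock genes were read too, and 0 passed in limma in any liver comparison. Of 8 fasting genes, 7 were above 0 in each mutant comparison. Their median was 0.27 for Hmgn1-/-n2-/- minus C57BL/6J wild type and 0.56 for Hmgn2-/- minus C57BL/6 wild type. Of all genes, 45.7% and 50.3% were above 0 there. Of 10 clock genes, 3 and 4 were above 0 in those comparisons. The part of these marker, acute phase, fasting and clock differences in the growth hormone targets was not tested.

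Mup20 (chr4:62011337-62054143, probe ILMN_2881950) had the largest difference between double knockouts and their wild types among the 5 genes at their brightest probes. Its log2 signal was 12.92, 12.89, 13.36 and 12.85 in Hmgn1-/-n2-/- livers, against 11.81, 11.72, 11.91 and 12.10 in C57BL/6J wild types. It was 13.07, 13.02, 13.00 and 12.92 in Hmgn2-/- livers, against 12.50, 13.18, 13.13 and 12.99 in C57BL/6 wild types. The 4 C57BL/6J wild-type livers were thus low and the other 12 were high, whatever their genotype, and no C57BL/6J wild-type liver reached any of them. The difference was 1.12 ± 0.15 (SE) for Hmgn1-/-n2-/- minus C57BL/6J wild type, a fold of 2.18, and 1.07 ± 0.15 for C57BL/6 minus C57BL/6J wild type, a fold of 2.10. Groups without overlap and higher were found for 2.59% and 5.26% of all genes in these comparisons. Both differences share the C57BL/6J wild-type arrays. Hmgn1-/-n2-/- livers averaged 13.01 and C57BL/6 wild-type livers 12.95, and these groups overlapped.

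Mup21 (chr4:62147832-62150841, probe ILMN_2818498) had a different order of groups. It read 13.84, 13.87, 13.94 and 13.78 in Hmgn1-/-n2-/- livers, against 13.03, 13.03, 12.88 and 13.16 in C57BL/6J wild types. In Hmgn2-/- livers it read 13.51, 13.49, 13.67 and 13.34, against 13.23, 13.22, 13.10 and 13.19 in C57BL/6 wild types. Every double knockout liver was above every single knockout liver, every single knockout liver was above every wild-type liver, and the wild-type groups overlapped. Hmgn1-/-n2-/- minus C57BL/6J wild type was 0.83 ± 0.10 (SE), a fold of 1.78. Against C57BL/6 wild types, whose strain label differs, the double knockouts were higher by 0.67 without overlap. Double and single knockouts also differ in strain label. Shares of all genes with this order, or without overlap in this pair, were not computed. For Hmgn1-/-n2-/- minus C57BL/6J wild type, 2.59% of all genes were higher without overlap. Between the wild types of the 2 strain labels, where Mup21 overlapped, 5.26% of all genes were higher in C57BL/6 without overlap.

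The single knockout comparison shares no mouse with the double knockout comparison, and it was tested. The genes were nonetheless chosen with results of all liver groups known, so its p-values are a description and not independent evidence. Mup21 was higher in Hmgn2-/- than in C57BL/6 wild-type livers by 0.32 ± 0.10 (SE), a fold of 1.25, with 4 of 4 mutant livers above all wild types. The exact two-sided permutation p was 0.0286, the smallest that 4 against 4 can give. The unadjusted p over the fit was 0.00408 and the limma Benjamini-Hochberg adjusted p over 7646 genes was 1.00, so the gene did not pass. Groups without overlap, higher in the mutant, were found for 0.863% of genes, and an unadjusted p under 0.05 with a higher mutant for 1.96%. Of the 5 genes tested, 0 passed the adjusted threshold of 0.05, against 0.0131% of all genes (1 gene, Hmgn2 itself), and Mup21 alone had an unadjusted p under 0.05.

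**Figure D1:**
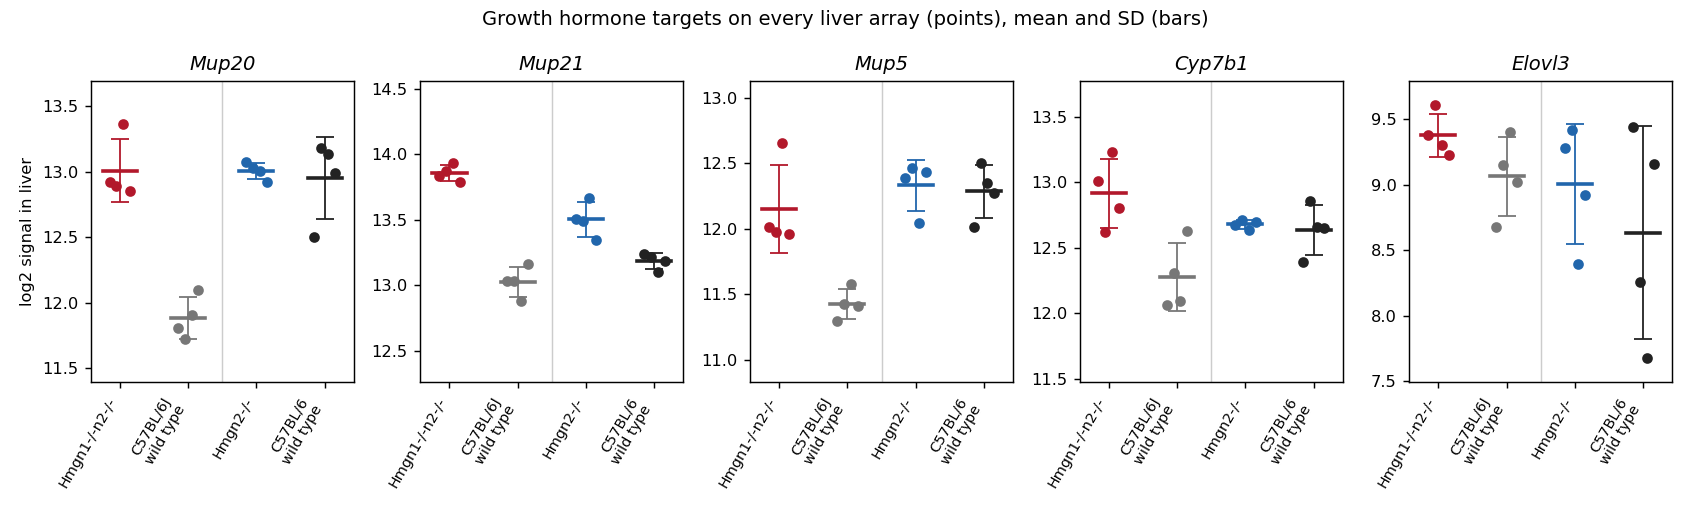
Log2 signal (y axis) of 5 growth hormone targets on the 16 liver arrays, with a point per mouse, the group mean as a thick bar and the SD as whiskers (n = 4 each). All panels span the same height. C57BL/6J wild types lie lowest for Mup20 and Mup5, and for Mup21 both mutants lie above their wild types.

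Mup5 (chr4:61831319-61858043) had 3 probes, which did not behave alike. The bright probe ILMN_3158509 read 12.01, 11.97, 12.65 and 11.96 in Hmgn1-/-n2-/- livers, against 11.30, 11.42, 11.57 and 11.41 in C57BL/6J wild types. It read 12.38, 12.46, 12.04 and 12.43 in Hmgn2-/- livers, against 12.01, 12.50, 12.35 and 12.27 in C57BL/6 wild types. As for Mup20, the C57BL/6J wild-type livers alone were low. The difference was 0.72 ± 0.16 (SE) for Hmgn1-/-n2-/- minus C57BL/6J wild type, a fold of 1.65, and 0.86 ± 0.16 for C57BL/6 minus C57BL/6J wild type. The dim probe ILMN_3079257, at raw intensities of 137.3 to 329.7, differed by 1.23 and 1.16 in those same comparisons. Probe ILMN_1226884 was detected on 0 of 16 liver arrays.

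In single knockout livers, Mup20 and Mup5 differed from their wild types by less than the spread between mice. Hmgn2-/- minus C57BL/6 wild type was 0.05 ± 0.15 (SE) for Mup20 (exact permutation p = 0.914) and 0.05 ± 0.16 for Mup5 (exact permutation p = 0.714). The dim Mup5 probe ILMN_3079257 went the other way, at -0.21 ± 0.26. At the bright probes each had an adjusted p of 1.00 in limma. Both signs turned when C57BL/6 wild type replicate 1 was left out, to -0.10 for Mup20 and -0.04 for Mup5. That liver was the lowest of its group for both genes.

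Other urinary protein probes were read beside these. Mup2, which is on the list of other male-biased genes, had differences of 0.25 and 0.47 at its 2 probes for Hmgn1-/-n2-/- minus C57BL/6J wild type and of 0.01 and 0.06 for Hmgn2-/- minus C57BL/6 wild type. Mup6, chosen after its values were seen, had 0.39 and 0.01. For C57BL/6 minus C57BL/6J wild type the differences were 0.20 and 0.41 for Mup2 and 0.48 for Mup6. Because the genes are close copies, signal of 1 member may be read by the probe of another, and how far was not tested. Mup3 (chr4:62083476-62087317) had no probe named for it.

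Cyp7b1 (chr3:18071944-18243890, probe ILMN_2601215) encodes the oxysterol hydroxylase of the alternative route of bile acid synthesis. Its log2 signal was 13.01, 12.62, 13.23 and 12.80 in Hmgn1-/-n2-/- livers, against 12.07, 12.31, 12.10 and 12.63 in C57BL/6J wild types. It was 12.67, 12.71, 12.63 and 12.70 in Hmgn2-/- livers, against 12.39, 12.85, 12.66 and 12.65 in C57BL/6 wild types. The double knockout group overlapped its wild types by 1 liver on each side, and the single knockouts lay inside the range of theirs. The differences were 0.64 ± 0.15 (SE) for Hmgn1-/-n2-/- minus C57BL/6J wild type and 0.04 ± 0.15 for Hmgn2-/- minus C57BL/6 wild type, the second with an exact permutation p of 0.686 and an adjusted p of 1.00 in limma. Without C57BL/6 wild type replicate 1 the second was -0.04.

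Elovl3 (chr19:46131897-46135694, probe ILMN_2682207) encodes an elongase of very long chain fatty acids. It read 9.38, 9.61, 9.30 and 9.22 in Hmgn1-/-n2-/- livers, against 8.68, 9.15, 9.40 and 9.02 in C57BL/6J wild types. In Hmgn2-/- livers it read 9.28, 9.42, 8.39 and 8.92, against 9.44, 8.26, 7.68 and 9.16 in C57BL/6 wild types. Groups overlapped in both pairs, and C57BL/6 wild types had the widest spread of the 4 groups. The differences were 0.32 ± 0.31 (SE) for Hmgn1-/-n2-/- minus C57BL/6J wild type and 0.37 ± 0.31 for Hmgn2-/- minus C57BL/6 wild type (exact permutation p = 0.486, limma adjusted p = 1.00). Slco1a1 (chr6:141907281-141946962), which encodes an organic anion transporter of the hepatocyte membrane, was detected on 1 of 16 liver arrays, at raw intensities of 100.8 to 111.1 over all of them, and was not tested.

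Over the 5 genes tested, the median difference was 0.72 for Hmgn1-/-n2-/- minus C57BL/6J wild type, beside -0.02 over all genes. Groups without overlap and higher in the mutant were found for 3 of the 5 genes, beside 2.59% of all genes, and this contrast chose them. For Hmgn2-/- minus C57BL/6 wild type the median was 0.05, beside 0.00 over all genes. For C57BL/6 minus C57BL/6J wild type, 2 of the 5 did not overlap and were higher, beside 5.26% of all genes. That comparison uses the same C57BL/6J wild-type arrays as the one that chose the genes, so nothing is read from the count. Elovl3 went the other way there, at -0.43.

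Mice of 1 group also differed among themselves, and the 10 pairs of genes were compared over those deviations, of which 0 passed after adjustment. With group means removed, Mup20 and Cyp7b1 had a Pearson r of 0.75 (permutation p = 0.00765, adjusted over 10 gene pairs 0.0765) and a Spearman rho of 0.565 (permutation p = 0.0634) over 16 livers. Without the 2 livers farthest in Mup20 r was 0.633. Within strain labels r was 0.891 over the 8 Hmgn2-/- and C57BL/6 wild-type livers (permutation p = 0.0397) and 0.744 over the 8 Hmgn1-/-n2-/- and C57BL/6J wild-type livers (permutation p = 0.0605), though without the 2 farthest livers these became 0.166 and -0.267, so each rests on those livers. Mup20 and Mup5 had r = 0.739 (permutation p = 0.0161, adjusted 0.0805) and rho = 0.656 (permutation p = 0.0232, adjusted 0.211). Without the 2 livers farthest in Mup20 this r was 0.523. Over the 8 Hmgn2-/- and C57BL/6 wild-type livers it was 0.675, and 0.115 without the 2 farthest. Over the 8 Hmgn1-/-n2-/- and C57BL/6J wild-type livers it was 0.813, and 0.656 without the 2 farthest. Mup5 and Cyp7b1 had r = 0.611 over the 16 livers (permutation p = 0.0241, adjusted 0.0805) and rho = 0.521 (permutation p = 0.0544, adjusted 0.211). Over the 8 Hmgn2-/- and C57BL/6 wild-type livers this pair alone passed, with r = 0.818 (permutation p = 0.00182, adjusted 0.0182), r = 0.837 without the 2 farthest livers, and rho = 0.929 (permutation p = 0.00698, adjusted 0.0698). Over the 8 Hmgn1-/-n2-/- and C57BL/6J wild-type livers it had r = 0.54 (permutation p = 0.232, adjusted 0.465). Mup20 and Mup21 had r = 0.184 (permutation p = 0.41, adjusted 0.586). Over the 16 livers, 3, 1 and 2 pairs passed without C57BL/6J wild type replicate 3, 2 or 4.

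**Figure D2:**
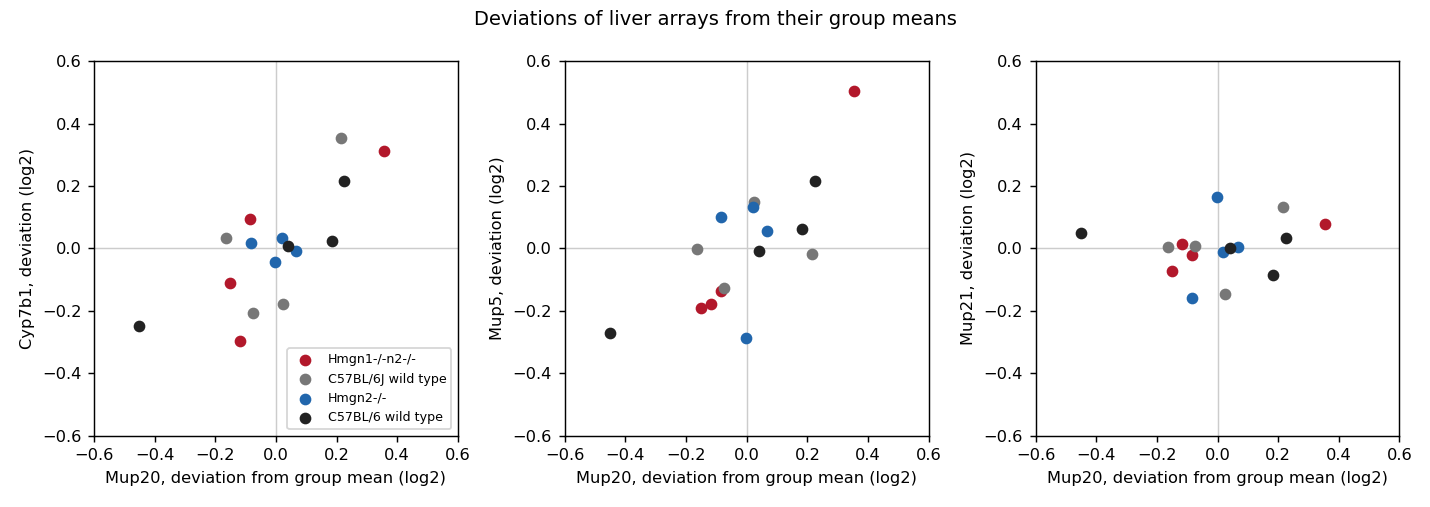
Deviation of each liver from its group mean (log2) for Mup20 on the x axis and Cyp7b1, Mup5 or Mup21 on the y axis, coloured by group, with a point per mouse (n = 16). Points run along the diagonal for Cyp7b1 (r = 0.75) and Mup5 (r = 0.739) and are flat for Mup21 (r = 0.184).

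The genes whose pattern over the 16 liver arrays was most like the mean of the 5 standardized genes were Mup2 (Pearson r = 0.886), Ulk2 (0.862), Zfp39 (0.849), Pttg1 (0.846), Mrps12 (0.842), Dcakd (0.841), Selenbp2 (0.839), Rpap2 (0.82), Sult5a1 (0.793) and Dio1 (0.792). These r hold the group differences and are a description. With group means removed they ranged from 0.307 for Sult5a1 to 0.653 for Selenbp2. Dio1, the type 1 deiodinase that activates thyroid hormone, averaged 9.45 in Hmgn1-/-n2-/- livers, 8.33 in C57BL/6J wild types, 9.11 in Hmgn2-/- livers and 9.41 in C57BL/6 wild types. The lowest r belonged to Ackr1 (-0.849), Upp1 (-0.825), Vldlr (-0.812), Zfp30 (-0.8) and Pebp1 (-0.798). Upp1, a uridine phosphorylase, kept r = -0.781 with group means removed, where Ackr1 had -0.202. Elovl3 had r = 0.0115 to the mean of the other 4 genes, and Cyp7b1 had 0.809.

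Other male-biased genes were compared as a list of 30, of which 24 were on the array and 22 were tested. In Hmgn1-/-n2-/- minus C57BL/6J wild-type livers 0 of 22 passed the test, beside 0.314% of all genes, while 21 of 22 differences were above 0, beside 45.7% of all genes, with a median of 0.27. The list was drawn up with these data known, so its direction is not independent evidence. In Hmgn2-/- minus C57BL/6 wild-type livers 0 of 22 passed, 12 were above 0, beside 50.3%, and the median was 0.01. The comparison of C57BL/6 minus C57BL/6J wild type holds no mutant but uses the same C57BL/6J wild-type arrays. There 18 of 22 were above 0, beside 44.2% of all genes, with a median of 0.11. Because those arrays are shared with the double knockout comparison, nothing is read from this count. Unadjusted p under 0.05 with a higher Hmgn1-/-n2-/- mean was found for 7 of 22, beside 3.81% of all genes.

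Of these, Selenbp2 lay between 11.58 and 11.93 in Hmgn1-/-n2-/- livers and between 9.82 and 11.46 in C57BL/6J wild types, without overlap. The difference was 1.13 ± 0.27 (SE, limma adjusted p = 0.0974). Selenbp2 spanned 11.09 to 11.94 in Hmgn2-/- livers and 10.82 to 11.58 in C57BL/6 wild types, so single knockouts reached double knockout levels. Moxd1, a monooxygenase-like gene, lay between 6.24 and 9.71 in Hmgn1-/-n2-/- livers and between 4.24 and 4.38 in C57BL/6J wild types (limma adjusted p = 0.199). It also spanned 4.25 to 7.17 in Hmgn2-/- livers and 4.19 to 8.62 in C57BL/6 wild types, so single livers of those groups reached double knockout levels. Ugt2b1, a glucuronosyltransferase, averaged 10.74 ± 0.16 in Hmgn1-/-n2-/- livers and 10.23 ± 0.12 in C57BL/6J wild types (SD, n = 4 each). It was the only list gene called in the wild-type comparison, 0.68 ± 0.12 (SE) higher in C57BL/6 than in C57BL/6J livers (limma adjusted p = 0.00988), beside 0.994% of all genes called higher. That call was lost without C57BL/6 wild type replicate 2, at 0.65.

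**Figure D3:**
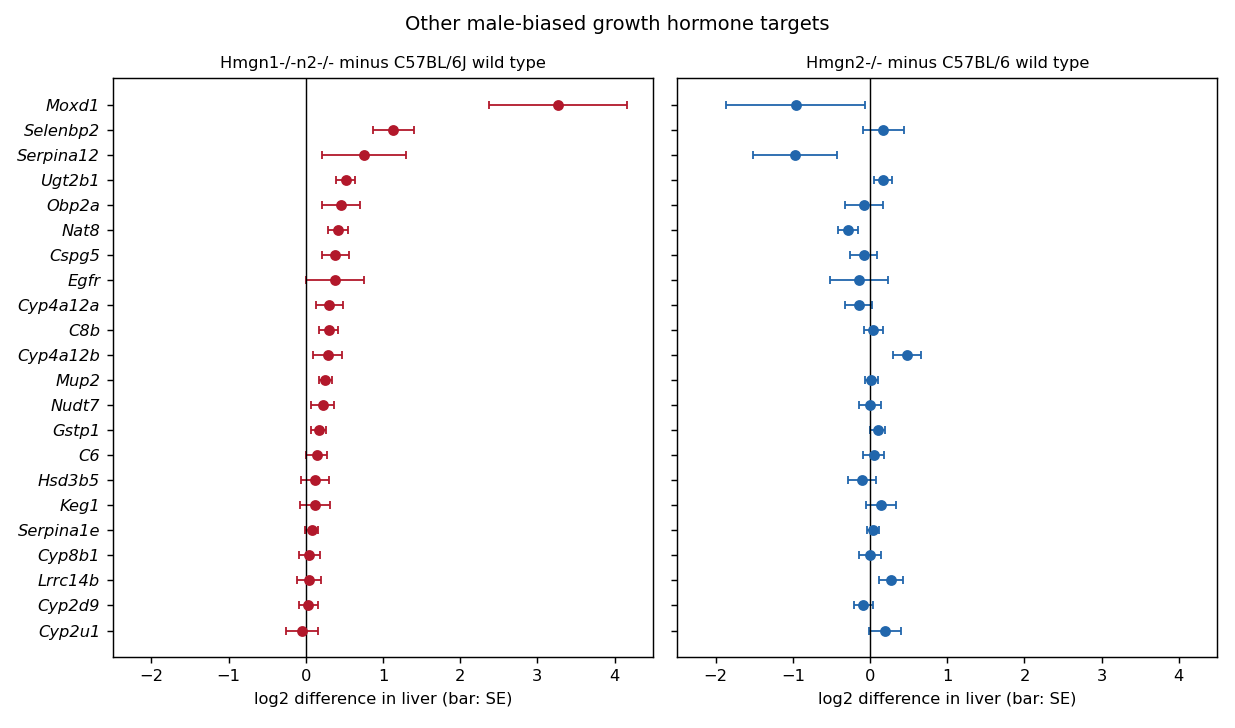
Log2 differences in the liver (x axis, bars SE) of the 22 other male-biased genes, for Hmgn1-/-n2-/- minus C57BL/6J wild type on the left and Hmgn2-/- minus C57BL/6 wild type on the right, 4 mice a group. On the left 21 of 22 points lie above 0 and on the right 12, and 0 passed the test in either.

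Female-biased genes were mostly too dim in these males: of 32 listed and 23 on the array, 9 were tested. In Hmgn1-/-n2-/- minus C57BL/6J wild-type livers 0 of 9 passed in limma, beside 0.314% of all genes. At an unadjusted p under 0.05, 3 of 9 were lower, beside 5.39% of all genes, while 5 of 9 were above 0, beside 45.7%, and the median was 0.01. Cyp4a14, a fatty acid omega-hydroxylase, lay between 6.04 and 7.26 in Hmgn1-/-n2-/- livers and between 9.07 and 10.05 in C57BL/6J wild types, a difference of -3.05 ± 0.86 (SE, limma adjusted p = 0.22). It spanned 7.86 to 11.73 in Hmgn2-/- livers and 6.70 to 10.92 in C57BL/6 wild types, so it varied widely among mice of 1 group. Hamp2, which encodes a hepcidin peptide, was lower in C57BL/6 than in C57BL/6J wild types by -2.60 ± 0.50 (SE, limma adjusted p = 0.0145), beside 1.35% of all genes called in either direction. That call was lost without C57BL/6 replicate 2 or 3 (-2.32 each) or C57BL/6J replicate 1 (-2.20) or 2 (-2.55). In Hmgn2-/- minus C57BL/6 wild-type livers 0 of 9 passed in limma, 3 were higher at an unadjusted p under 0.05, beside 1.96% of all genes, and Hamp2 had 1.65 ± 0.50 (SE, limma adjusted p = 1.00).

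The growth hormone pathway itself was read through 3 lists. Stat5b and Irs1 were on the array but detected on too few liver arrays to be tested, so nothing is known here of their levels. The same holds for Socs1, Onecut1, Cux2, Nr0b2 and Rsl1. Of 9 tested genes of the receptor pathway, 8 response genes shared by both sexes and 13 regulators of sex-biased genes, 0 passed in either mutant comparison in limma, beside 0.314% of all genes in Hmgn1-/-n2-/- and 0.0131% in Hmgn2-/- livers, so a list of this size would hold about no called gene at those shares. At an unadjusted p under 0.05 there were 1, 0 and 1 genes of these lists in Hmgn1-/-n2-/- minus C57BL/6J wild type, each lower, beside 5.39% of all genes, and 0 in Hmgn2-/- minus C57BL/6 wild type, beside 2.05% of all genes lower and 1.96% higher. Igf1, the circulating growth factor induced by growth hormone, averaged 11.69 in Hmgn1-/-n2-/- livers and 11.70 in C57BL/6J wild types, a difference of -0.01 ± 0.11 (SE). Socs2, a STAT5-induced inhibitor of the receptor, had 0.15 ± 0.59 and Cish, another, had -0.99 ± 1.00 in that comparison (SE). Both vary so much among mice that differences of this size could not be told from 0. Bcl6, a repressor that competes with STAT5, had 0.67 ± 0.56 (SE) for Hmgn1-/-n2-/- minus C57BL/6J wild type and 0.66 ± 0.56 for Hmgn2-/- minus C57BL/6 wild type.

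Among the other organs, Cyp7b1 alone was detected on all 16 arrays of each. Its raw intensity was 263.4 to 480.8 in brain, 181.9 to 257.1 in spleen and 153.9 to 483.6 in thymus, against 4292 to 10334 in liver. Differences in brain and spleen were small in both mutants, with adjusted p of 0.97 or more in limma, beside 0.0218% (Hmgn2-/-) and 0.142% (Hmgn1-/-n2-/-) of all genes called in brain and 0% in spleen. In the spleen fit 268 of 9237 genes had an unadjusted p under 0.05 in Hmgn2-/- and 987 in Hmgn1-/-n2-/-. Mup20, Mup21, Mup5 and Elovl3 were detected on 0 of 16 brain and 0 of 16 spleen arrays. Of the spleen arrays, 1 Hmgn1-/-n2-/- and 1 C57BL/6J wild-type array had Hmgn2 levels against their labels (raw 4326 and 164.3), and without them the Cyp7b1 difference in Hmgn1-/-n2-/- minus C57BL/6J wild-type spleens was 0.03, against 0.01 with them.

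Liver transcripts were read on the thymus arrays, with 1 array far above the others. Ttr, Apoa1 and the Mup2 probe ILMN_3065459 were detected on all of the other 15 arrays too, and Hmgn2-/- replicate 3 had the highest Mup2 among those, at 692.6. On that array, of C57BL/6 wild type replicate 1, raw Mup20 was 473.9, Mup21 704.3 and Mup5 (ILMN_3158509) 255.1, against at most 119.9, 127.3 and 114.4 on the other 15. Of the hepatocyte markers read there, those other than Alb were high on the same array. Ttr read 3388 against at most 311.2 elsewhere, Apoa1 2283 against at most 239.3, and the Cps1 probes 271.7 and 421.2 against at most 118.8 and 134.9. Alb was not raised, at 106.1 against at most 109.3. Its probe read only 226.6 in the liver of that mouse, so a small share of liver signal would hardly show there. The excess over the median of the other thymus arrays, as a percentage of that mouse's liver signal above the spleen median, was 5.83% for Mup20, 5.71% for Mup21, 5.04% for Cyp7b1, 3.30% for Mup5 (ILMN_3158509), 1.91% for Elovl3, 30.1% and 16.0% for the Mup2 probes, 14.6% for Mup6 and 3.12% to 19.0% over the hepatocyte probes. The 3.12% was that of Alb, and Elovl3 was detected on 0 of 16 thymus arrays, so these shares rest on signal near background. The other shares were unequal too, and the cause was not tested.

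That array bears on the thymus value of Cyp7b1. Its raw intensity was 483.6 there and 220.3, 191.2 and 183.8 in the other C57BL/6 wild types, against 167.4, 153.9, 166.8 and 168.7 in Hmgn2-/- thymi. Hmgn2-/- minus C57BL/6 wild type was -0.55 ± 0.30 (SE, limma adjusted p = 0.215), beside 15.5% of all genes called in that organ. Without the array it was -0.10 (limma adjusted p = 0.65). The Hmgn1-/-n2-/- minus C57BL/6J wild-type difference was -0.27 with adjusted p = 0.848 in limma, beside 0.232% of all genes called.

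**Figure D4:**
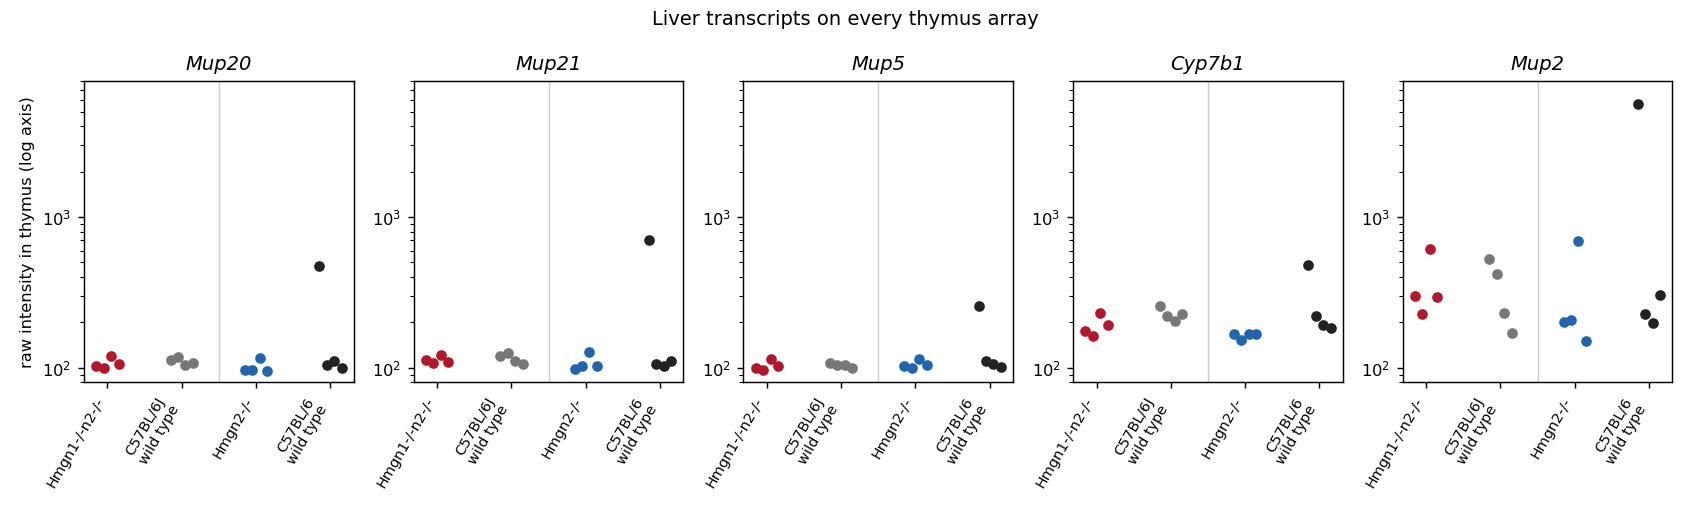
Raw intensity in the thymus (log y axis) of Mup20, Mup21, Mup5, Cyp7b1 and Mup2, with a point per array (n = 4 each). The array of C57BL/6 wild type replicate 1 stands above the other 15 in all 5 panels.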

How the data were processed

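The authors deposited raw bead-array intensities with detection p-values for each array, exported by GenomeStudio 2011.1 per the submitters' processing notes, and a table of normalized intensity whose method no label or file header names. RNA was extracted, cleaned and labelled with biotin per the labels' protocols. From the raw intensities, the background was corrected with limma 3.58.1 in R 4.3.3 (normal-exponential model from detection p-values, offset 16) and arrays were quantile normalized within each organ, on the log2 scale. Genes were kept with a detection p under 0.01 on at least 4 of 16 arrays, taking the brightest probe of each, which gave 7646 in the liver. A linear model of 4 group means was fitted in limma with Benjamini-Hochberg adjustment at 0.05. Correlations used 100000 permutations. Genes named are all members with all their probes, list genes past the threshold or up to 4 of smallest p per comparison, and the 10 most and 5 least alike. The members and lists were chosen with earlier results of these data known. Nothing in the labels gives a slide or scan, so such batches could not be separated, and strain label and mutant cohort cannot be told apart. The number of arrays limits precision. The fit was tested on simulated data. Alternatives covered normalization, filters, weights, the replicate number as a block and each liver array left out. Probe-to-gene names came from GEO's platform table, and coordinates from RefSeq GRCm38.p6.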

Additional observations from a re-analysis of the deposited data

Results flagged for a closer look

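In groups of 4, a sample was marked where its gap to the next exceeded Dixon's critical value. In the liver 2 of 24 probe and group sets were marked, where chance marks about 1 in 20: Hmgn1-/-n2-/- replicate 3 stood above its group for Mup20 (12.89, 12.85 and 12.92 in the others, 13.3616 there) and for the Mup5 probe ILMN_3158509 (12.6542). Without it the median difference of the 5 genes in Hmgn1-/-n2-/- minus C57BL/6J wild type was 0.555. Thymus sets were looked at only where an array of the group was detected, so their marks have no chance share. There, C57BL/6 wild type replicate 1 was marked for Mup20 (8.4821), Mup21 (9.1473) and Mup5 (7.257), on the log2 scale. Hmgn2-/- replicate 3 was marked in the thymus for the same 3 probes at lower values, 5.1408 for Mup20, 5.6191 for Mup21 and 5.0531 for Mup5.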

How the results depend on the processing

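In Hmgn2-/- minus C57BL/6 wild-type livers, 0 of the 5 genes passed under every setting run. Mup21 kept its sign in all of them, between 0.259 and 0.37, with adjusted p between 0.233 and 1.00 in limma. The signs of Cyp7b1, Mup5 and Mup20 turned under some settings. With array weights Cyp7b1 was -0.0483, Mup5 -0.117 and Mup20 -0.0436, and with median scaling Mup5 was -0.0104. The cause was not tested. Elovl3 stayed above 0 when 1 liver array was left out, at 0.0523 to 0.64. Leaving out 1 liver array gave -0.042 to 0.113 for Cyp7b1, -0.0439 to 0.142 for Mup5 and -0.0972 to 0.129 for Mup20, the low ends without C57BL/6 wild type replicate 1. The median difference in Hmgn1-/-n2-/- minus C57BL/6J wild type stayed between 0.555 and 0.788 without 1 array. Counts of genes called moved more. For Hmgn2-/- they were 1, 2 with every probe by itself and 2 with array weights, and 1 to 3 without 1 array (3 without C57BL/6 wild type replicate 1, 2 without Hmgn2-/- replicate 2). For Hmgn1-/-n2-/- they were 24, 53 with median scaling (10 higher and 43 lower, against 13 and 11, with the median of all genes at -0.185), 15 with the deposited normalized table, 51 with array weights, and 11 to 32 without 1 array (11 without Hmgn1-/-n2-/- replicate 3). For C57BL/6 minus C57BL/6J wild type they were 57 with median scaling, 67 with the deposited table, 822 with array weights, and 20 to 155 without 1 array (20 without C57BL/6 replicate 2). Other male-biased genes called were 1, 2 with only the 8 arrays of the comparison, and 0 to 2 without 1 array (0 without C57BL/6 wild type replicate 2, 2 without C57BL/6J replicate 4). Female-biased genes called were 1, 2 with array weights, 2 with only 8 arrays, and 0 to 1 without 1 array. Correlated pairs were 0, 1 with median scaling, 1 with normalization over all 64 arrays, 1 over only the Hmgn2-/- mice and their wild types, and 0 to 3 without 1 array. With the replicate number as a block the calls were 1 for Hmgn2-/-, 21 for Hmgn1-/-n2-/- and 59 for the wild types. Deviations of same-numbered livers from their group means correlated between -0.283 and 0.273. These values show no clear pairing of mice by number but cannot exclude one. The settings chosen after seeing the data were leaving out 1 thymus array and leaving out 2 spleen arrays. Dim probes limit Slco1a1, most female-biased genes and the second Mup5 probe.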
